A study of Mus musculus with 18 samples.

Results

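NKT1 and NKT2 cells, functional subsets of the invariant natural killer T (iNKT) cells of the thymus, were compared in SKG mice, whose T cell receptor (TCR) signalling is weak. The contrast is of SKG NKT1 cells against SKG NKT2 cells, measured as RNA-seq read counts across all genes. It rests on 6 of the 18 libraries of the study, 3 of each subset, chosen by the genotype and subset in the sample labels and not by any measured value. SKG mice carry a spontaneous point mutation in Zap70, on the BALB/c background, and both SKG groups carry it. The mice were bred from SKG mice crossed to BALB/cJ, and the WT animals used for comparison came from the same cross. Thymus cells that bound the CD1d tetramer were sorted as NKT1 when CD49a+ and low for ICOS, and as NKT2 when CD49a-, Sdc-1-, high for ICOS and CD4 and high for TCR beta. Neither the age of the mice behind these libraries nor whether animals were pooled for a library was given in the sources used here. The libraries of a group came from independent experiments per the series description.

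iNKT cells are T cells with a nearly invariant TCR alpha chain that recognises lipids on CD1d, and they acquire effector functions while still in the thymus. NKT1 cells depend on the transcription factor T-bet (Tbx21) and make interferon gamma, NKT2 cells hold high PLZF (Zbtb16) and make IL-4, and NKT17 cells make IL-17. Zap70 is the kinase that docks on the phosphorylated CD3 and zeta chains of the triggered TCR and passes the signal on, and the SKG mutation weakens that docking, so signals in these cells are low but not absent.

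The SKG libraries held 4938755 to 6027514 counts in NKT1 and 4391029 to 6018709 in NKT2, with 11840 to 12048 and 12285 to 12487 genes detected. Of 23337 genes in the table, 15582 had a count in the 18 libraries and 11118 were tested. Values per library are given as CPM, counts scaled to a common library size, in the order of replicates 1, 2 and 3, and a gene was called at an adjusted p under 0.1 with a fold change of at least 1.5. CPM are not corrected for gene length, so levels are compared between libraries and not between genes.

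The sort and the subset labels were checked first. Itga1, which encodes CD49a, stood at 209.8, 236 and 189 CPM in SKG NKT1 and at 0.220, 0.196 and 0 CPM in SKG NKT2. Icos was at 211, 222 and 247 CPM against 861, 665 and 681 CPM, and Cd4 at 81.9, 90.4 and 90.8 CPM against 238, 199 and 225 CPM. These genes were used for sorting, so their separation is a check and not a result. Trbc1 and Trbc2 are not analysed here. Zap70 carries a point mutation in these mice, so its RNA level does not test the genotype. It stood at 483, 421 and 529 CPM in SKG NKT1 and 394, 360.2 and 436 CPM in SKG NKT2, which overlapped and did not pass the test (log2 fold change 0.27 ± 0.12 (SE), adjusted p = 0.113), beside 516, 569 and 605 and 483, 574 and 502.8 CPM in WT NKT1 and WT NKT2.

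The lineage markers followed the labels. Tbx21 (chromosome 11, 96959385 to 96976645, minus strand, build NCBIM37) was at 501, 389 and 550.3 CPM in SKG NKT1 and 15.2, 12.3 and 24.2 CPM in SKG NKT2, 27.5-fold higher in NKT1 (log2 4.78 ± 0.44 (SE), adjusted p = 2.71e-06). Ifng, its best known target, was at 179, 244 and 183 CPM against 1.54, 3.13 and 2.25 CPM, with a log2 fold change of 6.43 ± 0.35 (adjusted p = 9.29e-11). Zbtb16 (chromosome 9, 48462416 to 48644050, minus strand) ran the other way, at 49.98, 47.1 and 41.1 CPM in SKG NKT1 and 229.7, 154 and 196 CPM in SKG NKT2, which is 4.20-fold lower in NKT1 (log2 -2.07 ± 0.20, adjusted p = 1.27e-07). All 6 NKT1 markers (Tbx21, Ifng, Il2rb, Cxcr3, Klrb1c and Klrd1) were called higher in SKG NKT1, with a median log2 fold change of 5.43. Of 6 NKT2 markers (Zbtb16, Gata3, Il4, Il17rb, Icos and Ccr7), 5 were called lower, with a median of -1.88. Icos is among the 5 and was used for sorting, so its call is a check and not a result. Over all 11118 genes, 10.0% were called higher in SKG NKT1 and 8.63% lower, and the median log2 fold change was -0.0208.

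The exception among the NKT2 markers was Gata3, the type 2 lineage factor, which lay slightly higher in SKG NKT1, at 247, 230.2 and 213 CPM against 162, 171 and 184 CPM. Its log2 fold change of 0.41 ± 0.13 had an adjusted p of 0.0251 but stayed under the 1.5-fold minimum. Il4 separated the SKG subsets only modestly, at 39.2, 47.1 and 56.1 CPM in NKT1 and 119, 75.6 and 93.9 CPM in NKT2 (log2 -1.02 ± 0.30, adjusted p = 0.0189). In WT the same gene was at 7.73, 13.0 and 25.3 CPM and 110.2, 175 and 152 CPM, a log2 fold change of -3.27, and the SKG contrast was smaller by 2.25 ± 0.43 on the log2 scale (adjusted p = 0.00542). Its level in NKT1 cells was higher in every SKG library than in any WT library.

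**Figure D1:**
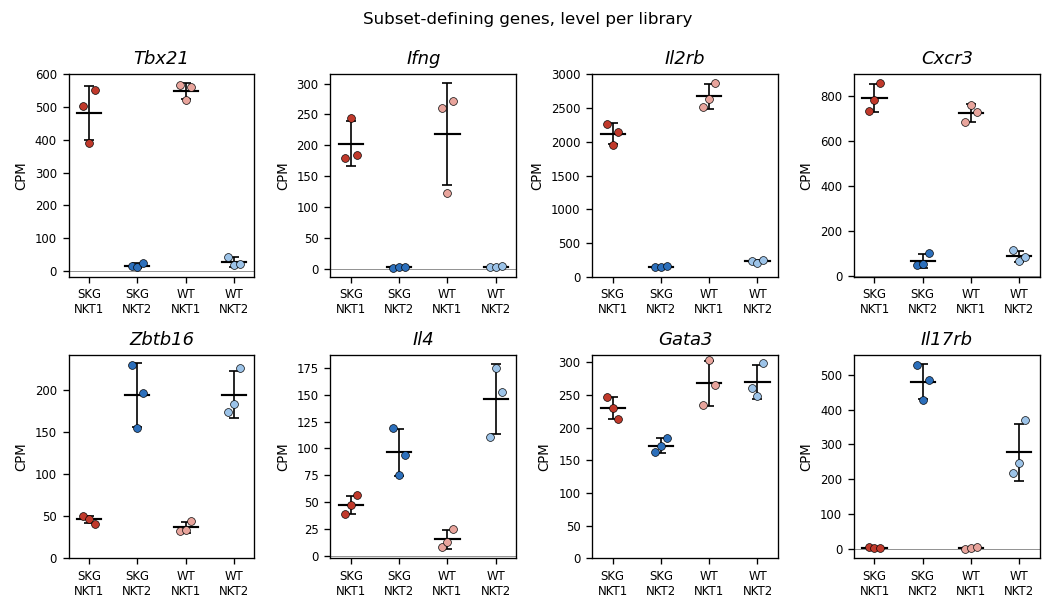
CPM per library of 8 subset-defining genes (y axes, linear, each from 0) in SKG NKT1, SKG NKT2, WT NKT1 and WT NKT2 cells (x axes), with points for libraries, bars for the mean and whiskers for the SD (n = 3). The Tbx21, Ifng, Il2rb and Cxcr3 points of NKT1 lie above those of NKT2 in both genotypes, Zbtb16, Il4 and Il17rb run the other way, and Gata3 in SKG lies between 162 and 247 CPM in all 6 libraries.

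Markers of other cells were low, and some moved with the subset. Il17a, the NKT17 cytokine, had no count in any of the 6 libraries. The summed level of 8 B cell genes was 3.12 to 6.04 CPM in SKG NKT1 and 0.979 to 1.98 CPM in SKG NKT2, with Pax5 at 0 in both. Of 10 double-positive thymocyte genes, which summed to 27.9 to 32.7 CPM in NKT1 and 63.0 to 85.0 CPM in NKT2, most of the sum was Cd1d1 (means of 26.7 and 60.9 CPM), and Rag1 and Arpp21 were at 0. The 10 myeloid genes summed to 367 to 455 CPM in NKT1 and 187 to 204 CPM in NKT2, with Csf1r and Cd14 at 0 in both, and the excess lay in Fcer1g (194 against 0.980 CPM) and Tyrobp (48.7 against 0.577 CPM), adaptor chains that NK receptors also use. The remaining myeloid genes, Lyz1, Lyz2, Itgam, Mpeg1, Cst3 and Cd68, had higher means in NKT2. Lyz2 reached at most 33 counts in an NKT2 library and 6 in an NKT1 library, and Itgam 19 and 0. SKG NKT2 replicate 3 held more NKT1 marker RNA than the other NKT2 libraries, a sum over the 6 NKT1 markers of 298 CPM beside 211 and 213 CPM, against 3752 to 4152 CPM in NKT1. Without that library all 6 NKT1 markers were still called, and printed folds that moved by more than 1.5 times without it are marked with the genes. In bulk samples, fewer cells of a type and less RNA per cell cannot be told apart.

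Under the Zap70 mutation the 2 subsets remained widely different. Of the 11118 genes, 2074 were called between SKG NKT1 and SKG NKT2 (18.7%), 1115 higher in NKT1 (10.0%) and 959 lower (8.63%). At least 4-fold differences made up 744 of these calls, 384 higher and 360 lower in NKT1, and 118 and 106 were at or over 32-fold. In 99 of the genes higher in NKT1, no NKT2 library had more than 3 counts, and in 149 of those lower, no NKT1 library had. Where that is so, folds are given as lower bounds against a floor of 3 counts in each library, which covers counting error only. Libraries of the 2 subsets did not overlap in 4325 genes (38.9%), which include 1988 of the 2074 called.

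The largest differences, among genes that averaged 50 counts or more in the subset where they were higher, were of genes nearly silent in one subset. Ncr1, which encodes the NK cell activating receptor NKp46 (chromosome 7, 4289326 to 4296766, plus strand), was at 24.9, 27.1 and 40.9 CPM in SKG NKT1 with no count in NKT2, at least 53.7-fold higher. Pdgfb, a growth factor gene, was at 30.7, 37.7 and 24.1 CPM and Tmem163, a zinc transporter gene, at 28.4, 37.1 and 22.3 CPM, both with no count in SKG NKT2 and at least 53.4 and 50.8-fold higher in NKT1. In the other direction, Igfbp4, whose product binds insulin-like growth factors (chromosome 11, 98902558 to 98913969, plus strand), was at 0.557, 0.208 and 0.347 CPM in NKT1 and 373, 279.6 and 456 CPM in NKT2, at least 651-fold lower in NKT1. Tmie, Kcnf1 and Clstn3 had no count in SKG NKT1 and stood at 21.8, 19.8 and 10.8, at 18.9, 11.0 and 18.8 and at 15.0, 11.7 and 18.5 CPM in SKG NKT2.

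The steadiest differences, with the smallest adjusted p, were of abundant genes. Il2rb, the beta chain shared by the IL-2 and IL-15 receptors on which NKT1 cells rely (chromosome 15, 78310983 to 78325496, minus strand), was at 2272, 1954 and 2144 CPM in SKG NKT1 and 143, 139.6 and 163 CPM in NKT2 (log2 3.84 ± 0.12, adjusted p = 8.04e-16). Ifngr1, the ligand-binding chain of the interferon gamma receptor, was 10.0-fold higher (adjusted p = 7.86e-15), Zyx, which encodes the adhesion protein zyxin, 9.30-fold (adjusted p = 7.86e-15), and Sidt1 28.2-fold (adjusted p = 8.51e-14). Among genes lower in NKT1, Lmo4, a LIM-domain cofactor of transcription (chromosome 3, 143851494 to 143868184, minus strand), was at 18.2, 18.1 and 19.8 CPM against 427, 299 and 290.0 CPM (log2 -4.17 ± 0.17, adjusted p = 3.03e-14). Trib2, a pseudokinase, was 11.6-fold lower in NKT1 (adjusted p = 1.12e-13), Rarg, a retinoic acid receptor, 4.98-fold (adjusted p = 1.09e-12) and Emb, the cell surface protein embigin, 88.5-fold (adjusted p = 1.23e-12).

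**Figure D2:**
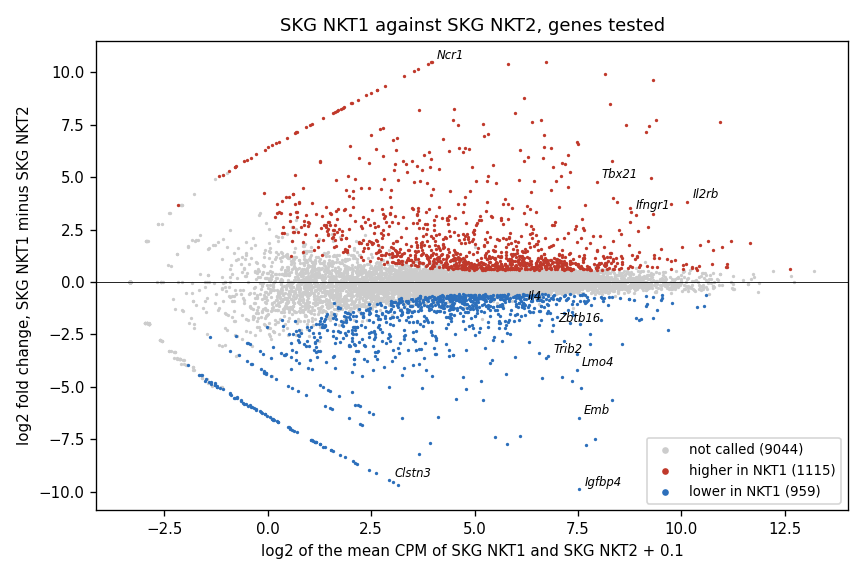
Log2 fold change of SKG NKT1 minus SKG NKT2 (y axis) against the log2 of the mean CPM of both groups plus 0.1 (x axis), 1 point per tested gene, red for the 1115 called higher and blue for the 959 called lower in NKT1. The straight edges at the upper and lower left are genes with no count in one subset, whose fitted fold change depends on the prior count, and Ncr1 and Clstn3 lie on them.

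Transcription factors fell on both sides, 10 of 37 tested called higher in SKG NKT1 and 16 lower (70.3% called, beside 18.7% of all genes). Beside Tbx21, Runx3, which supports cytotoxic programmes, was at 112, 129.97 and 103 CPM in NKT1 and 24.2, 37.4 and 14.1 CPM in NKT2, 4.58-fold higher (adjusted p = 4.76e-07). Irf8 was 4.37-fold higher (adjusted p = 1.13e-05) and Bhlhe40, a factor linked to interferon gamma production, 8.88-fold higher (adjusted p = 1.03e-06). Without SKG NKT2 replicate 3 the log2 fold change of Irf8 was 2.77 instead of 2.13. Among the factors lower in NKT1, Tcf7, which maintains less differentiated T cells, was at 77.3, 68.3 and 57.2 CPM against 439, 369 and 314 CPM (log2 -2.47 ± 0.16, adjusted p = 1.38e-10), and Lef1, its relative, was 2.62-fold lower in NKT1. Id3, which restrains E proteins, was at 6.32, 4.17 and 7.62 CPM against 76.9, 63.2 and 99.7 CPM, 13.1-fold lower in NKT1 (adjusted p = 2.8e-08), Tox was 4.14-fold lower and Irf4 10.9-fold lower. Myb had at most 2 counts in a SKG NKT1 library and stood at 11.9, 11.9 and 10.3 CPM in SKG NKT2. The SKG and WT folds of Tcf7 (log2 -2.47 and -2.47) lay side by side, with a difference of -0.00 ± 0.21.

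NK receptors were the list with the highest median, a log2 fold change of 6.32 over 23 tested genes. Of these, 21 were called higher in SKG NKT1 and none lower (91.3% called, beside 18.7% of all genes). Klrk1, which encodes the activating receptor NKG2D, was at 594, 712 and 542 CPM against 1.98, 2.15 and 1.12 CPM. Klrc1, an NKG2 chain that pairs with the Klrd1 product CD94, was at 52.2, 41.4 and 38.5 CPM against 0.661, 0 and 0 CPM, at least 76.4-fold higher, and Klre1 was at 26.4, 23.7 and 23.9 CPM with no count in NKT2, at least 42.8-fold higher. The Ly49 genes are near-identical copies between which the counting may have split reads. Klra3 (log2 6.07 ± 0.34) and Klra9 (at least 50.5-fold higher) therefore stand for the family rather than for single receptors. The other 2 tested, Klrb1a and Cd96, were not called. Cd96, which competes with activating receptors for a ligand of the nectin family, was at 442, 482 and 450.1 CPM in NKT1 and 479, 577 and 489 CPM in NKT2 (log2 -0.17 ± 0.11, adjusted p = 0.315).

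Cytotoxic and type 1 effector genes followed the same direction, 15 of 19 higher in SKG NKT1 and 1 lower (84.2% called, beside 18.7% of all genes). Their median log2 fold change was 4.05. Gzma and Gzmb, the granzymes that kill target cells, stood at 469, 818 and 419 and 1335, 1435 and 1269 CPM in SKG NKT1 and at 1.32, 0.392 and 0.161 and 1.32, 3.33 and 13.5 CPM in SKG NKT2. Prf1, which forms the pore for granzymes, was 127-fold higher (adjusted p = 3.53e-09), and the chemokine gene Ccl5 779-fold higher (adjusted p = 4.46e-09). Nkg7, a cytotoxic granule protein, was at 3929, 3768 and 4071 CPM against 8.15, 8.03 and 41.1 CPM. NKT2 replicate 3 was the highest NKT2 library for Nkg7, Gzmb, Ccl5 and the chemokine gene Xcl1, and without it their log2 fold changes rose from 7.63, 7.70, 9.60 and 6.37 to 8.93, 9.14, 10.74 and 8.08. Ctsw, a cathepsin of cytotoxic cells, showed a smaller and steadier gap, 3.82-fold (log2 1.93 ± 0.10, adjusted p = 1.06e-12). The gene called lower was Lta, the cytokine lymphotoxin alpha, at 8.73, 12.5 and 12.1 CPM in NKT1 and 66.1, 83.6 and 79.0 CPM in NKT2 (log2 -2.78 ± 0.24, adjusted p = 6.02e-09).

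T-bet binds the T-box half-site GGTGTGA, and the promoters that hold it among the effector, chemokine receptor and cytokine receptor genes called higher are shown here as examples of what the sequence around these starts looks like. The windows are RefSeq promoters on build GRCm38.p6, 250 bases before to 50 after the gene's start, printed 5' to 3' on the gene's strand with the match in capitals. Of 42 such genes, 32 had a window and 3 of them held the half-site on either strand, which are Cd48 (2.29-fold higher in SKG NKT1, an adhesion ligand of the SLAM family), Xcl1 and Nkg7. In all 3 the match was on the gene's strand, beginning 73, 188 and 13 bases before the start.
Cd48, chr1:171681742-171682041, plus strand: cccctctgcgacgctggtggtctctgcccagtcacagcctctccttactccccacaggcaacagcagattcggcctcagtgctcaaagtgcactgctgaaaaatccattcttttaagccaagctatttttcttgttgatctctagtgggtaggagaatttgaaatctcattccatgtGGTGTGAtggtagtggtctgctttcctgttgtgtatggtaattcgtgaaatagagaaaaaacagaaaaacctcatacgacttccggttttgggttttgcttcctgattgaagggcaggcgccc
Xcl1, chr1:164935473-164935772, minus strand: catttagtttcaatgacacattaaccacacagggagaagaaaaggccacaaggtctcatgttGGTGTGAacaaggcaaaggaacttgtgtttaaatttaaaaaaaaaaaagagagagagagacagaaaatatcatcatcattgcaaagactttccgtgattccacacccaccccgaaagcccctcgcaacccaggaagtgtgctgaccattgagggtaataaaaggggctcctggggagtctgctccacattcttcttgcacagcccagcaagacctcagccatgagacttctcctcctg
Nkg7, chr7:43436888-43437187, plus strand: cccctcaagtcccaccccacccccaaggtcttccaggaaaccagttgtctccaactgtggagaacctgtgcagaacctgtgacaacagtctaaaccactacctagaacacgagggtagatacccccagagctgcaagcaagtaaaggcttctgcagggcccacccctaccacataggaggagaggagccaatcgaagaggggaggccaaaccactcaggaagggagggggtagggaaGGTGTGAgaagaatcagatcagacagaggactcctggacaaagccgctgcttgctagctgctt
The half-site occurred in a window of 5.18% of 811 genes called higher in SKG NKT1 and of 4.76% of 693 genes called lower. The share was 4.05% of 8056 tested genes with a window and 4.6% of all 27025 genes with a window, tested or not. These are letter matches only.

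Type 2 effector genes were split, 4 of 9 tested lower in SKG NKT1 and 2 higher (66.7% called, beside 18.7% of all genes). Il17rb, the IL-25 receptor chain that marks NKT2 cells, was at 5.02, 1.25 and 1.73 CPM in SKG NKT1 and 527, 428 and 486 CPM in SKG NKT2 (log2 -7.47 ± 0.56, adjusted p = 3.58e-07, and -8.30 without SKG NKT1 replicate 1). Plac8 was at 0.743, 0.833 and 0.866 CPM against 136, 105 and 169.9 CPM, 164-fold lower in NKT1 (adjusted p = 2.27e-08). Il13 was at 0.557, 0.833 and 1.04 CPM against 7.05, 4.70 and 8.83 CPM. Both genes called higher in NKT1, Il4ra and the ubiquitin ligase gene Rnf128, encode a receptor chain and a restraint on T cell activation rather than a type 2 product. Ltb, lymphotoxin beta, was not called (log2 -0.26 ± 0.12, adjusted p = 0.118).

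Among cytokine receptors and their signalling genes, 15 of 34 were higher in SKG NKT1 and 6 lower (61.8% called, beside 18.7% of all genes). The IL-12 receptor chain Il12rb2 was at 162, 138 and 131 CPM against 0.220, 2.55 and 4.50 CPM and the IL-18 receptor chain Il18rap at 161, 154 and 135 CPM against 11.0, 11.0 and 17.5 CPM. The other IL-12 receptor chain, Il12rb1, was not called. Il10ra was 48.3-fold higher (adjusted p = 4.62e-09, with a log2 fold change of 5.59 that was 6.32 without SKG NKT2 replicate 2), and Socs2, a feedback inhibitor of cytokine signalling, was at 205, 216 and 176 CPM against 2.20, 0.979 and 6.10 CPM. The interferon gamma receptor was split between its chains. Ifngr1 was higher in NKT1 as given above, while Ifngr2, the signalling chain, was at 1.11, 0.417 and 0 CPM in SKG NKT1 and 113, 114 and 99.9 CPM in SKG NKT2 (log2 -7.70 ± 0.43, adjusted p = 4.07e-11). That value was -9.01 without SKG NKT1 replicate 1 and -7.09 without SKG NKT1 replicate 3. Il6ra was 26.4-fold lower in NKT1, Stat5b 2.32-fold and Il27ra 1.79-fold, each with an adjusted p of at most 1.16e-05. Il7r, the IL-7 receptor, overlapped at 1085, 1038 and 897 CPM and 1135, 1037 and 941 CPM and was not called (adjusted p = 0.829).

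Receptors for homing and adhesion divided with the subset, 12 of 29 higher and 7 lower in SKG NKT1 (65.5% called, beside 18.7% of all genes). Cxcr3 was at 737, 783 and 861 CPM in NKT1 and 48.9, 52.3 and 104 CPM in NKT2, and Cxcr6, a receptor that draws iNKT cells to the liver, at 5174, 5239 and 4729 CPM and 1272, 1442 and 1507 CPM. Cd69, which retains cells in tissue, was 7.35-fold higher (adjusted p = 1.13e-08). Slamf7 was at 351, 358 and 358 CPM against 1.10, 0 and 8.51 CPM, and its log2 fold change of 6.65 rose to 9.37 without NKT2 replicate 3. Ccr7, the receptor for lymph node and thymic medulla chemokines, was at 0, 3.96 and 1.91 CPM in NKT1 and 429, 397 and 414 CPM in NKT2 (log2 -7.75 ± 0.51, adjusted p = 5.83e-08), and the log2 value was -7.17 without SKG NKT1 replicate 1 and -8.69 without SKG NKT1 replicate 2. Ccr4 was at 10.2, 11.5 and 16.8 CPM against 716, 555 and 627 CPM, Ccr9, a thymus and gut homing receptor, at 13.2, 7.08 and 4.16 CPM against 192, 144 and 236 CPM, and Slamf6, needed for iNKT selection, was 10.7-fold lower in NKT1 (adjusted p = 3.69e-06). Cd44 was not called (log2 0.24 ± 0.11, adjusted p = 0.127).

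**Figure D3:**
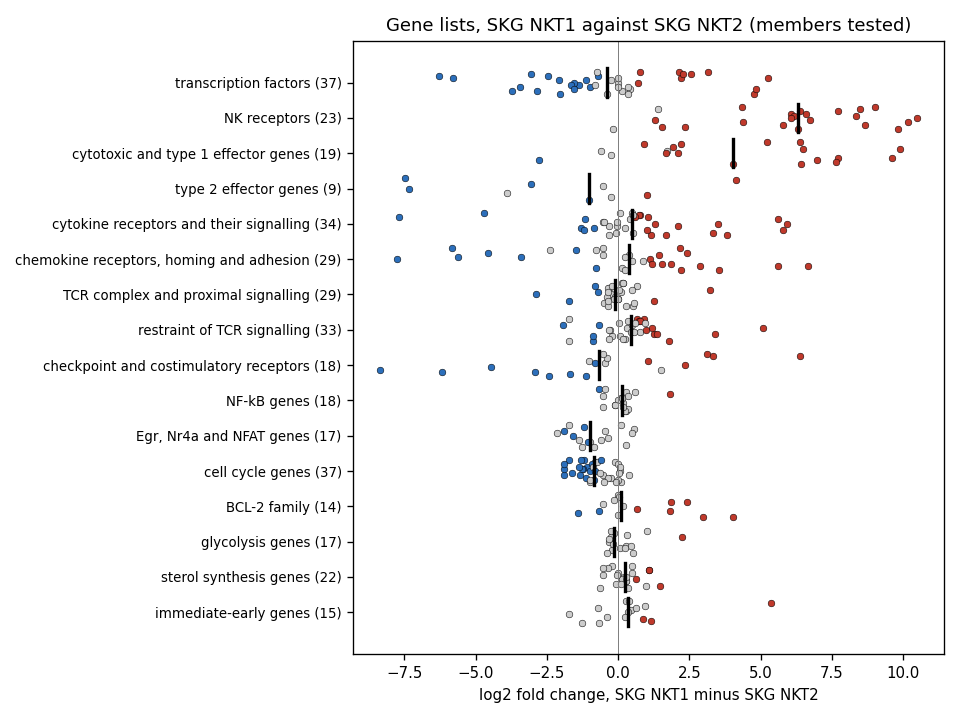
Log2 fold change of SKG NKT1 minus SKG NKT2 (x axis) of the tested members of 16 gene lists (rows, number tested in brackets), red where called higher, blue where called lower and grey where not called, with a black bar at each list's median. The medians of the NK receptors (6.32) and of the cytotoxic and type 1 effector genes (4.05) lie far to the right, and those of the TCR complex (-0.12) and NF-kB genes (0.145) near 0.

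Of 29 genes of the TCR complex and proximal signalling, which carry the TCR signal itself, 2 were higher in SKG NKT1 and 4 lower (20.7% called, near the 18.7% of all genes), with a median log2 fold change of -0.12. Cd247, which encodes the zeta chain on which Zap70 docks, was at 276, 297 and 307 CPM in NKT1 and 1039, 1032 and 844 CPM in NKT2, 3.31-fold lower in NKT1 (adjusted p = 6.5e-10). Themis, a TCR signalling adaptor of developing thymocytes, was at 17.7, 23.3 and 16.8 CPM against 135, 159.9 and 129 CPM, 7.35-fold lower (adjusted p = 7.87e-07). The costimulator Cd28 was 1.74-fold lower (adjusted p = 4.11e-05), while Txk, a Tec-family kinase, was 2.37-fold higher (adjusted p = 3.02e-07). The other gene called higher was Syk, the kinase related to Zap70, and the number called higher ran from 1 without SKG NKT1 replicate 2 to 4 without SKG NKT1 replicate 1.

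Of 33 negative regulators of TCR signalling, 11 were higher and 4 lower in SKG NKT1 (45.5% called, beside 18.7% of all genes). The study names some of these regulators, Spry2 and Lat2 among them, from SKG libraries of the same series, so the list is not independent evidence. Ptpn22, a phosphatase that acts on Lck and Zap70, was at 418, 317 and 439 CPM against 173, 143 and 176 CPM (log2 1.26 ± 0.14, adjusted p = 3.91e-07). Ubash3a, which dampens signalling downstream of Zap70, was at 186, 169.8 and 195 CPM against 49.8, 60.9 and 50.7 CPM (log2 1.77 ± 0.20), while its relative Ubash3b was 3.80-fold lower in NKT1 (adjusted p = 3.34e-07). Spry2, an inhibitor of the Ras pathway, was at 101, 68.5 and 64.6 CPM against 1.54, 1.96 and 3.21 CPM. Cd5, whose level tracks TCR signal strength in thymocytes, was at 184, 144 and 253 CPM in NKT1 and 355, 288 and 429.7 CPM in NKT2 (log2 -0.88 ± 0.18, adjusted p = 0.001), and Cd6 was 1.60-fold lower. Dgka and Cblb were not called (adjusted p = 0.0593 and 0.341).

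Egr, Nr4a and NFAT genes act downstream of the TCR signal. Of 17, 4 were lower in SKG NKT1 and none higher (23.5% called, near the 18.7% of all genes), with a median log2 fold change of -0.988. The number called lower was 6 without SKG NKT1 replicate 2, and 1 gene was called higher without that library or without SKG NKT2 replicate 3. The 4 were Egr2, a factor needed for PLZF induction, at 25.3, 13.5 and 12.1 CPM against 102, 48.9 and 38.5 CPM (log2 -1.89 ± 0.36, adjusted p = 0.000706), its corepressors Nab2 (3.02-fold) and Nab1 (2.32-fold), and Rcan3. Egr1 varied widely within the groups, at 97.9, 150.4 and 47.0 CPM and 346, 226 and 133 CPM, and was not called (adjusted p = 0.144), though it was without SKG NKT1 replicate 2 (adjusted p = 0.0958). Of 15 immediate-early genes, which respond to cell handling as well as to signals, 3 were higher in NKT1 and none lower (20% called), and 2 were called lower without SKG NKT1 replicate 2.

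Receptors that check or support T cell responses were divided, 8 of 18 lower and 5 higher in SKG NKT1 (72.2% called, beside 18.7% of all genes). Pdcd1, which encodes PD-1, was at 17.8, 8.12 and 25.3 CPM against 93.6, 84.0 and 98.8 CPM (log2 -2.41 ± 0.25, adjusted p = 1.89e-06). Lag3 had no count in SKG NKT1 and stood at 7.27, 9.01 and 4.98 CPM in SKG NKT2, at least 12.5-fold lower, and Cd200 was at least 18.5-fold lower. Tnfrsf4 (OX40) and Tnfsf11 (RANKL) were 21.8 and 7.53-fold lower in NKT1, and the log2 fold change of Tnfrsf4 moved from -4.45 to -6.44 without SKG NKT1 replicate 1. Tigit was on the NKT1 side, at 12.1, 4.37 and 9.18 CPM against 1.98, 0.979 and 0.161 CPM. Cd40lg fell short of the fold minimum (log2 -0.52 ± 0.10, adjusted p = 0.000416).

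Of 18 NF-kB genes, 1 was higher and 1 lower in SKG NKT1. Malt1, which relays antigen receptor signals to NF-kB, was higher in NKT1 at 141, 149.6 and 135 CPM against 34.6, 38.8 and 47.9 CPM (log2 1.81 ± 0.21, adjusted p = 7.26e-07), and Nfkb1 was lower. That is 11.1% called, beside 18.7% of all genes, and leaving out a library moved the number lower between 0 (without SKG NKT1 or NKT2 replicate 1) and 2 (without SKG NKT1 replicate 2 or 3). Rela was at 224, 201 and 206 CPM against 173, 172 and 171 CPM (adjusted p = 0.105) and Bcl10 at 94.4, 115 and 84.9 CPM against 91.0, 70.9 and 72.7 CPM (adjusted p = 0.129), and neither was called.

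Proliferation and survival genes also divided. None of 37 cell cycle genes was higher in SKG NKT1 and 18 were lower (48.6% called, beside 18.7% of all genes), with a median log2 fold change of -0.834. With a library left out the number lower ran from 12 (without SKG NKT1 replicate 1) to 19 (without SKG NKT1 replicate 2). Kif20a, a mitotic kinesin, was at 3.16, 4.58 and 5.54 CPM against 20.5, 16.1 and 13.3 CPM, the thymidine kinase gene Tk1 at 3.72, 5.83 and 9.01 CPM against 18.9, 22.3 and 27.6 CPM, and Top2a at 31.0, 42.7 and 20.3 CPM against 66.1, 57.4 and 76.6 CPM. The helicase genes Mcm6 and Mcm7 were not called (log2 -0.02 ± 0.15 and 0.03 ± 0.14). In the BCL-2 family 6 of 14 were higher and 2 lower (57.1% called, beside 18.7% of all genes). The number lower was 1 without SKG NKT1 replicate 2 or SKG NKT2 replicate 3 and 3 without SKG NKT2 replicate 2. Bcl2, the survival gene that IL-15 sustains in NKT1 cells, was at 601, 599 and 641 CPM in NKT1 and 34.1, 24.3 and 54.0 CPM in NKT2 (log2 4.03 ± 0.42, adjusted p = 9.58e-06), Bcl2l1 was 3.58-fold higher (adjusted p = 7.38e-08), and so was the death-promoting Bcl2l11 (3.55-fold, adjusted p = 3.29e-05). Among metabolic genes, 1 of 17 for glycolysis and 4 of 22 for sterol synthesis were higher and none lower (5.88% and 18.2% called, beside 18.7% of all genes). The glycolysis count was 2 without SKG NKT2 replicate 3, and the sterol count dropped to 2 without SKG NKT1 replicate 1 or SKG NKT2 replicate 2. Leaving out SKG NKT1 replicate 1 or 3 or SKG NKT2 replicate 1 or 3 gave 1 sterol gene called lower.

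The same contrast was then taken in WT, whose 6 libraries are separate from those of SKG. WT NKT1 against WT NKT2 gave 3054 called genes (27.5%), 1526 higher and 1528 lower in NKT1 (13.7% each). Of the 2074 genes called in SKG, 1487 were called in WT with the same sign, which is 71.7% of the SKG calls and 48.69% of the WT calls. The log2 fold changes of SKG and WT had a Pearson r of 0.756 and a Spearman rho of 0.6329 across genes, which are not independent of each other. Their SD across genes was 1.369 in SKG and 1.58 in WT.

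A gene called in one genotype and not in the other is not thereby shown to differ, so the difference of the contrasts was tested for every gene. It was called for 430 genes (3.87%), 198 with the higher log2 fold change in SKG and 232 with the lower. Of the 563 genes called only in SKG, 62 passed this test and 457 had the same sign in WT. Of the 1543 called only in WT, 179 passed it and 1298 had the same sign in SKG. Among the 430, the SKG contrast was the smaller in absolute size in 310. The same share over all tested genes was not taken, and SKG log2 fold changes had the smaller SD across genes (1.369 beside 1.58). The gap between genotypes was larger in NKT2 than in NKT1 in 311 of the 430 (72.3%, beside 56.7% of all tested genes). Leaving out 1 library at a time gave 326 to 572 called differences, the upper end without WT NKT1 replicate 3.

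**Figure D4:**
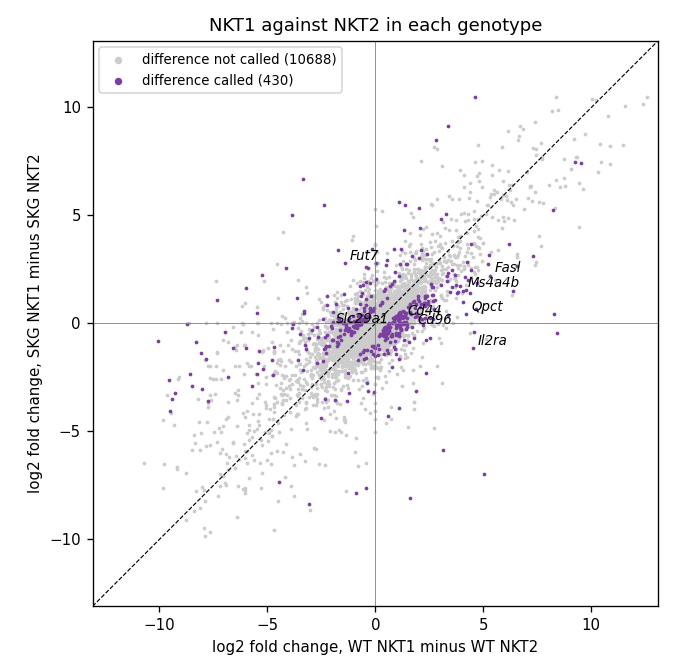
Log2 fold change of NKT1 minus NKT2 in SKG (y axis) against the same in WT (x axis), 1 point per tested gene, purple for the 430 genes whose contrast differed between the genotypes, with a dashed line of equality. Most points follow the line, while Qpct (0.44) and Cd96 (-0.17) lie nearer 0 in SKG than in WT and Fut7 and Il2ra have opposite signs in SKG and WT.

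Qpct and Cd96 were called higher in NKT1 in WT and not called in SKG, while Fasl and Ms4a4b were called in both with a smaller fold in SKG. Qpct, a glutaminyl cyclase (chromosome 17, 79451246 to 79489583, plus strand), was at 343, 296 and 341 CPM in WT NKT1 and 18.4, 14.9 and 19.4 CPM in WT NKT2, but at 319, 369.5 and 319 CPM in SKG NKT1 and 235, 288 and 219 CPM in SKG NKT2. In SKG it was still higher in NKT1 (log2 0.44 ± 0.12, adjusted p = 0.0127) but stayed under the 1.5-fold minimum. Its contrast was lower in SKG by a log2 value of -3.78 ± 0.19 (adjusted p = 1.35e-11), and the SKG NKT2 libraries were the ones that stood apart from their WT counterparts. Cd96, given above for SKG, was at 446, 375 and 480.2 CPM and 126, 133 and 138 CPM in WT (difference -1.88 ± 0.16, adjusted p = 1.2e-07). Fasl, the ligand of the death receptor Fas, was 4.61-fold higher in NKT1 in SKG (adjusted p = 2.19e-09), and was at 112, 66.2 and 104 CPM in SKG NKT2 and 10.0, 16.1 and 15.7 CPM in WT NKT2, beside 489, 377 and 438 and 487, 597 and 586 CPM in NKT1 (difference -3.10 ± 0.25, adjusted p = 1.2e-07). Ms4a4b, a CD20-family membrane protein, showed the same arrangement, at 990.1, 833 and 883 CPM in SKG NKT2 and 165, 134 and 204 CPM in WT NKT2, beside 2507, 2665 and 2553 and 2809, 2669 and 2859 CPM in NKT1 (difference -2.54 ± 0.22, adjusted p = 2.67e-07).

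In the other direction, Slc29a1, a nucleoside transporter, was at 135, 141 and 137 CPM in SKG NKT1 and 143, 167 and 144 CPM in SKG NKT2, and at 88.1, 98.1 and 129 CPM and 455, 419.9 and 449 CPM in WT (difference 1.93 ± 0.17, adjusted p = 2.67e-07). Fam129a behaved alike, with a log2 fold change of 0.06 in SKG and -1.72 in WT (difference adjusted p = 4.45e-07). Fut7, the fucosyltransferase that makes selectin ligands, was higher in NKT1 in SKG, at 26.8, 28.3 and 20.6 CPM against 3.08, 3.92 and 3.85 CPM, and lower in NKT1 in WT, at 17.4, 11.5 and 23.9 CPM against 67.4, 40.4 and 33.8 CPM (difference 4.20 ± 0.40, adjusted p = 6.44e-07). Cmtm7 also had opposite signs (log2 0.70 in SKG and -1.24 in WT, difference adjusted p = 4.28e-06), although without SKG NKT1 replicate 3 its SKG value of 0.53 was under the fold minimum.

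In all, 24 genes were called in both genotypes with opposite signs, and all 24 also passed the test of the difference. Il2ra, the IL-2 receptor alpha chain, was at 13.2, 7.71 and 13.7 CPM in SKG NKT1 and 21.6, 17.0 and 38.2 CPM in SKG NKT2, against 25.7, 31.9 and 25.3 CPM and 0.818, 0.175 and 2.42 CPM in WT (difference -5.67 ± 0.54, adjusted p = 2.99e-06). Its SKG fold alone rests on NKT2 replicate 3, without which it was not called (log2 -0.73, adjusted p = 0.125). Ccr8 and the death-promoting gene Bik were also among the 24 (SKG log2 -0.79 and -0.69, WT 1.32 and 1.81), and their SKG calls were lost without 2 and without 3 of the libraries in turn, respectively Ccr8 at an adjusted p of up to 0.114 and Bik of up to 0.205.

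**Figure D5:**
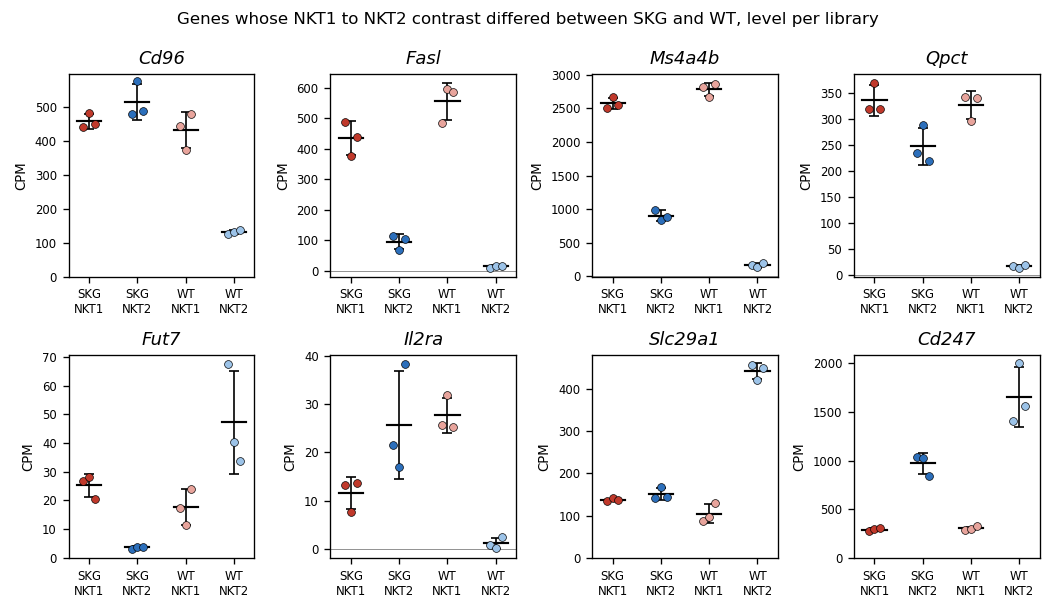
CPM per library (y axes, linear, each from 0) of 8 genes whose NKT1 to NKT2 contrast differed between SKG and WT, in the 4 groups on the x axes, with points for libraries, bars for the mean and whiskers for the SD (n = 3). In Cd96, Fasl, Ms4a4b and Qpct the SKG NKT2 points lie above the WT NKT2 points, in Slc29a1 and Cd247 below, and in Fut7 and Il2ra the order of NKT1 and NKT2 is turned.

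The called differences were also counted by list. Over all 11118 tested genes, 3.87% had a called difference, 198 genes with a higher contrast in SKG and 232 with a lower one. In cytokine receptors and their signalling, 9 of 34 contrasts were lower in SKG and none higher. Il4ra was at 54.8, 87.9 and 67.1 CPM in SKG NKT2 and 5.11, 7.86 and 9.54 CPM in WT NKT2, beside 122, 128 and 173 and 97.2, 126 and 155 CPM in NKT1 (difference -3.04 ± 0.31, adjusted p = 2.38e-06). Pim2, a kinase induced by cytokines, was at 166, 190.2 and 151 CPM in SKG NKT1 and 478, 412 and 465 CPM in WT NKT1 (difference adjusted p = 1.45e-06), and Il7r, Il21r and Cish also had lower SKG contrasts (differences of -1.14, -0.85 and -1.62). In NF-kB genes the WT contrast had 9 of 18 higher in NKT1 and the SKG contrast 1, beside 13.7% and 10.0% of all genes. The difference was called lower in SKG for 4 of the 18, among them Relb (-1.49 ± 0.18, adjusted p = 1.46e-05) and Nfkb2 (-1.24 ± 0.19, adjusted p = 0.000287). Rela and Bcl10 were called in WT, but their differences were not (adjusted p = 0.191 and 0.125).

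In the TCR list the contrast was higher in SKG for Themis and Cd247 and lower for none. Themis was at 0, 0 and 0.354 CPM in WT NKT1 and 40.3, 37.0 and 58.7 CPM in WT NKT2, so that its level in NKT1 was higher in each SKG library than in any WT library (difference 5.61 ± 0.79, adjusted p = 0.000239). Cd247 was at 290.2, 304 and 326 CPM and 1403, 1997 and 1555 CPM in WT (difference 0.70 ± 0.17, adjusted p = 0.0288), a call lost without WT NKT2 replicate 2, where the difference of 0.55 was under the fold minimum. In homing receptors, 2 contrasts were higher in SKG and 7 lower, the first including Ccr10 (3.08 ± 0.50, adjusted p = 0.00107) and the second Cxcr6 (-0.73 ± 0.17, adjusted p = 0.0169) and Cd44 (-1.01 ± 0.15, adjusted p = 0.00026). In cell cycle genes 30 of 37 were lower in NKT1 in WT and 18 in SKG, beside 13.7% and 8.63% of all genes. For 4 of them the difference was called, Mcm6 and Mcm7 among them (0.86 and 0.89). None of the 6 NKT1 markers had a called difference, and for Tbx21 it was 0.49 ± 0.56 (adjusted p = 0.785) and for Ifng 0.09 ± 0.51 (adjusted p = 0.98).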

How the data were processed

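RNA-seq counts were deposited by the authors as whole reads per gene symbol, not normalised. Per the study's methods, 50-base reads of Smart-seq2-type libraries were mapped with TopHat after removal of rRNA, tRNA, adapter and spike-in reads, and counted with htseq-count in union mode. The methods name mouse build mm9, while the submitters' processing notes name mm10 and hg19 with Bowtie 1.0.0, TopHat 1.4.1 and HTSeq 0.7.1. The annotation and strand setting were not given in the sources used here, so overlapping and antisense genes cannot be told apart. The reads carry no molecular identifiers.

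Libraries were joined to columns by sample title, and 2 columns of no listed sample were not used. edgeR 4.0.16 (filterByExpr, TMM, robust quasi-likelihood test, two-sided, Benjamini-Hochberg over all tested genes) was fitted to all 18 libraries in 6 groups (12 residual degrees of freedom, common BCV 21.1%). Genes were called at the study's thresholds, an adjusted p under 0.1 and 1.5-fold. A standard error is the absolute log2 fold change over the square root of F. Alternatives were DESeq2 1.42.0, other scalings, filters and thresholds, a replicate block and leaving out each library. Replicate libraries differed by more than sampling noise, and p-values measure only the spread between them. Coordinates are from GENCODE M1 on NCBIM37 by symbol (10846 of 11118 genes), and promoter sequences from RefSeq on GRCm38.p6.

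Genes were named by rule. They are the 4 largest and the 4 most significant in each direction whose counts averaged 50 or more where higher and whose libraries do not overlap, the 4 most significant differences between genotypes in each direction, members of gene lists, and Zap70, Tbx21, Zbtb16, Gata3, Ifng and Il4. Some genes that meet the rule are not reported here. The members and lists were chosen with earlier results of these data known.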

Additional observations from a re-analysis of the deposited data

Results flagged for a closer look

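The NKT1 minus NKT2 contrast differed between SKG and WT, by a test of the difference itself in edgeR, for 430 genes, among them 48 genes named here. The values below are the SKG log2 fold change minus the WT one. Where one group has hardly any counts (Pdgfb, Il13, Themis and Lag3) the size depends on the prior count added in the fit and only the direction is read. Il2ra, Tigit and Plac8 also had few counts in a group, so their sizes are uncertain. With libraries left out, their differences ran from -6.95 to -5.16, from -5.42 to -3.35 and from -3.30 to -2.64. No explanation was tested.

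Among genes higher in NKT1 in both genotypes, called or not, the SKG contrast was lower for Qpct (-3.78), Fasl (-3.10), Il4ra (-3.04), Klrb1f (-2.65), Ms4a4b (-2.54), Pim2 (-1.87), Cish (-1.62), Ubash3a (-1.29), Nfkb2 (-1.24), Ptpn22 (-1.04), Cd44 (-1.01), Il21r (-0.85) and Cxcr6 (-0.73). It was higher for Pdgfb (5.88) and Zyx (0.82). Among genes lower in NKT1 in both, the gap between the subsets was narrower in SKG for Themis (5.61), Il13 (4.98), Tnfsf11 (2.78), Il4 (2.25), Slc29a1 (1.93), Mcm6 (0.86) and Cd247 (0.70) and wider for Lta (-2.38), Trib2 (-1.68) and Rarg (-1.05). The fitted fold changes had opposite signs in SKG and WT for Il2ra (-5.67), Fut7 (4.20), Ccr10 (3.08), Bik (-2.49), Ccr8 (-2.11), Cmtm7 (1.95), Cd96 (-1.88), Fam129a (1.77), Ltb (-1.66), Relb (-1.49), Il7r (-1.14), Dgka (-0.95), Mcm7 (0.89) and Cd40lg (-0.85). Of these, Il2ra, Fut7, Bik, Ccr8 and Cmtm7 were called in both genotypes. Nab1 and Nfatc1, in the next paragraph, also had opposite signs.

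A further 9 differences were called with all libraries but lost their call when at least 1 library was left out. They were Lag3 (-5.30), Tigit (-4.21), Plac8 (-2.90), Bhlhe40 (-2.09, adjusted p = 0.121 without SKG NKT2 replicate 3), Spry2 (1.81), Nab1 (-1.75), Lef1 (0.90), Cblb (-0.87) and Nfatc1 (0.75). Cd247 lost its call without WT NKT2 replicate 2, as given above.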

How the results depend on the processing

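The count of genes called between SKG NKT1 and SKG NKT2 (2074) was 2134 with DESeq2, 2073 with RLE scaling, 2102 with upper-quartile scaling, 2050 without the count filter, 1571 at a mean of at least 50 counts, 1806 at an adjusted p under 0.05, 2870 with no fold minimum, 2116 with the SKG libraries alone and 1838 to 1959 with each library left out. Of the 2074, 2052 were called by DESeq2 too. Under these settings the called differences between SKG and WT ran from 300 to 574, against 430, and the genes called alike in both genotypes from 1152 to 2125, against 1487. None of these counts moved by more than 1.5 times. To look for pairing, the log CPM of each library was taken less the mean of its own group. These deviations were correlated between SKG NKT1 and SKG NKT2 libraries. For libraries that share a number in their sample titles the correlation was weak (0.0514, 0.182 and 0.108). Each library correlated best with the one of its own number, and the other pairs ran from -0.123 to 0.0223. Centring on the group mean forces some of the pairs to negative values. What the number stands for was not given, and the main fit did not use it, so a pairing of the libraries remains possible. With that number as a replicate block 2149 genes were called, and 513 for the difference. Among the named genes 10 values changed sign, all of genes not called. With upper-quartile scaling Mcm7 was -0.0310 and Fam129a -0.0017 on the log2 scale, and with libraries left out Il7r ran from -0.10 to 0.031, Mcm6 from -0.13 to 0.064 and Mcm7 from -0.050 to 0.15. The cause was not tested. The count filter left 11118 of the 15582 genes with a count, and genes below it were tested only in the fit without it.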
